A study of Mus musculus with 8 samples.

Results

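Naive CD3 T cells that had been treated with soluble concanavalin A (ConA) were compared between 24 h and 3 h, on the 2 arrays of 8 that carried these labels, 1 array for each time. The members are all genes measured on both arrays: 22180 genes had a probe set of their own, and 13428 of these passed a filter on low values. Levels are log2 RMA values, so a difference of 1 is 2-fold, and each difference is the ConA 24 h array minus the ConA 3 h array. The cells came from C57BL/6J mice. They were purified from spleen and lymph nodes by removing other cells, and were kept in RPMI medium with serum. ConA 24 h cells were stimulated for 3 h, washed and then cultured on to 24 h, and ConA 3 h cells were taken when the stimulation ended. The study calls this ConA dose low. The other arrays held cells attached to a poly-L-lysine (PLL) coating at 24 h and 3 h, cells with ConA on such plates (ConA+PLL) at 24 h and 3 h, and untreated naive cells at 24 h and in steady state (0 h). Neither the number of mice per array nor pooling is given in the sources used here. With 1 array per group no difference has a replicate check, no p-value is given, and "higher" and "lower" describe these 2 arrays. The comparison asks how much of the early ConA response was left after wash and further culture. Time in culture and time since the wash cannot be told apart in it.

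ConA is a plant lectin that binds mannose-bearing glycoproteins, among them the T cell receptor, and crosslinks them. Crosslinked receptors signal through calcium and NFAT, through Ras and ERK, and through NF-kB. The first genes to answer, the immediate early genes, need no new protein synthesis. They include the Egr, Fos, Jun and Nr4a transcription factors, and their transcripts are short-lived. T cells that go on to divide then build ribosomes, take up amino acids, switch on nucleotide synthesis and replicate their DNA. Cells that return to rest keep the genes of the naive state, such as the interleukin 7 receptor.

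The arrays had medians between 3.53 and 3.69 over all probe sets. As a marker of weak signal, 95% of olfactory and vomeronasal receptor genes, which T cells are not known to use, stayed under 4.10 in their highest value. This is called the receptor level below. The 9 measured T cell markers were above it on both ConA arrays and averaged 9.02 at 24 h and 8.81 at 3 h. Cd3e was at 10.74 at 24 h and 10.48 at 3 h. B cell markers passed the filter in 5 of 10 cases, all 5 higher at 24 h (median 0.24), and 3 reached the receptor level at 24 h against 1 at 3 h. The summed level of that list was 10.50 at 24 h and 9.68 at 3 h (log2), and over all 8 arrays it ran from 9.34 to 10.82. Ighm, the B cell heavy chain constant gene, was at 10.38 at 24 h and 9.51 at 3 h, while Ms4a1 and Ebf1, defining B cell genes, did not pass the filter. Of the monocyte and macrophage markers 5 reached the receptor level at 24 h and 2 at 3 h, and of the neutrophil markers 0 and 1. Monocyte and macrophage markers passed the filter in 8 of 10 cases, 7 of them above 0 (median 0.092) and 1 at least 2-fold higher, while Adgre1 was under it. Neutrophil markers passed in 2 of 8 cases, with 0 above 0, and S100a8 was under the filter. Dendritic cell markers passed in 8 of 9 cases, 6 of them above 0 (median 0.13), and 5 reached the receptor level at 24 h against 3 at 3 h. For NK cell markers 4 of 8 passed, 3 of them above 0, and 1 reached that level at 24 h against 2 at 3 h. The part of other cell types in the results was not tested, and in bulk RNA fewer cells of a type and less RNA per cell cannot be told apart.

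The ConA 24 h array had more genes higher than lower. 406 genes were at least 2-fold higher (3.02% of the genes that passed) and 205 were at least 2-fold lower (1.53%). The largest differences lay on the lower side. 31 genes were at least 4-fold lower and 9 at least 4-fold higher, and at 8-fold the counts were 10 and 0. Of the 406 higher genes 97 had a lower level under the receptor level, and 340 were still 2-fold higher when levels under it were set to it. Of the 205 lower genes these counts were 63 and 159. The excess of higher genes depended on the scaling. The median of all genes was 0.041 as deposited and -0.08 after each array was centred on its gene median, a setting under which 277 genes were higher and 307 lower. Higher genes made up 66.4% of the 2-fold genes as deposited, 65.3% after quantile normalization and 47.4% after centring. The other pairs had 170 genes higher and 105 lower with PLL (1.27% and 0.782%), 236 and 203 in naive cells (1.76% and 1.51%), and 786 and 216 with ConA+PLL (5.85% and 1.61%).

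**Figure D1:**
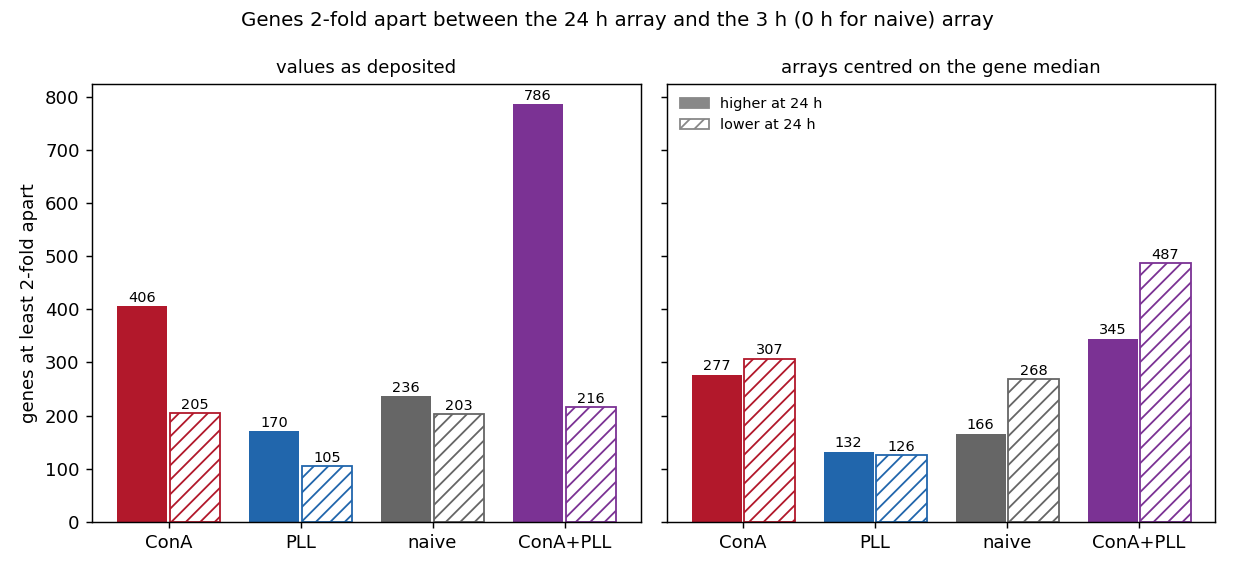
Number of genes at least 2-fold higher (filled bars) and lower (hatched bars) on the 24 h array than on the 3 h array (0 h array for naive cells), for the ConA, PLL, naive and ConA+PLL pairs, with the values as deposited (left) and after centring each array (right). The ConA pair had 406 higher and 205 lower genes as deposited, and 277 and 307 after centring.

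Immediate early genes were the lowest list at 24 h. 13 of the 22 that passed the filter were at least 2-fold lower, 0 were 2-fold higher and 21 were below 0, with a median of -1.26 against 0.041 for all genes. Nr4a1, an orphan nuclear receptor that follows T cell receptor signals, was at 5.48 with ConA at 24 h and at 10.84 with ConA at 3 h, the largest difference of all (-5.36). On the other arrays it was at 5.25 and 8.71 with PLL (24 h and 3 h), at 5.52 and 9.18 in naive cells (24 h and 0 h), and at 6.45 and 11.78 with ConA+PLL. The ConA, naive and PLL arrays at 24 h thus lay between 5.25 and 5.52, while every early array, the untreated 0 h cells included, was at 8.71 or above. Its relatives Nr4a3 (5.07 at 24 h, 9.56 at 3 h, difference -4.49) and Nr4a2 (4.39, 8.26, -3.87) were also over 2-fold lower in the PLL and naive pairs.

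Egr1, a zinc finger transcription factor induced through ERK, behaved otherwise. It was at 4.91 with ConA at 24 h and at 8.36 with ConA at 3 h (-3.45). Without ConA it was low at both times: 4.77 and 5.35 with PLL, and 4.88 and 5.16 in naive cells at 24 h and 0 h. With ConA+PLL it was at 5.82 and 9.45, so only the early arrays with ConA stood above the rest. Egr3, a member of the same family, was at 3.47 at 24 h and 7.09 at 3 h (-3.62, or -2.99 with the 24 h level set to the receptor level), against -0.63 in the PLL pair and -1.34 in naive cells. Egr2 was at 4.70 and 6.71 (-2.02).

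Among AP-1 subunits, which pair to bind one DNA site, Fosl2 was at 5.65 at 24 h and 8.71 at 3 h (-3.07), Fos at 3.56 and 6.13 (-2.57), and Jun at 5.84 and 8.27 (-2.43). These were lower in the naive pair as well, by 2.33 for Fosl2 and 3.37 for Jun, whose level in fresh naive cells (8.73) was above that with ConA at 3 h. Irf4, a transcription factor whose level follows signal strength, was at 4.35 with ConA at 24 h and 8.67 with ConA at 3 h (-4.33). It was at 3.94 and 6.63 with PLL, at 4.69 and 6.94 in naive cells, and at 6.24 and 10.18 with ConA+PLL. Of the 17 activation transcription factors 4 were 2-fold lower and 16 were below 0 (median -0.56). Myc, a driver of growth, was at 6.84 with ConA at 24 h and 8.40 with ConA at 3 h (-1.57), with -0.25 in the PLL pair and -0.37 in the naive pair. Bhlhe40 (-1.48) and Nfil3 (-1.01) were the other 2-fold members.

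**Figure D2:**
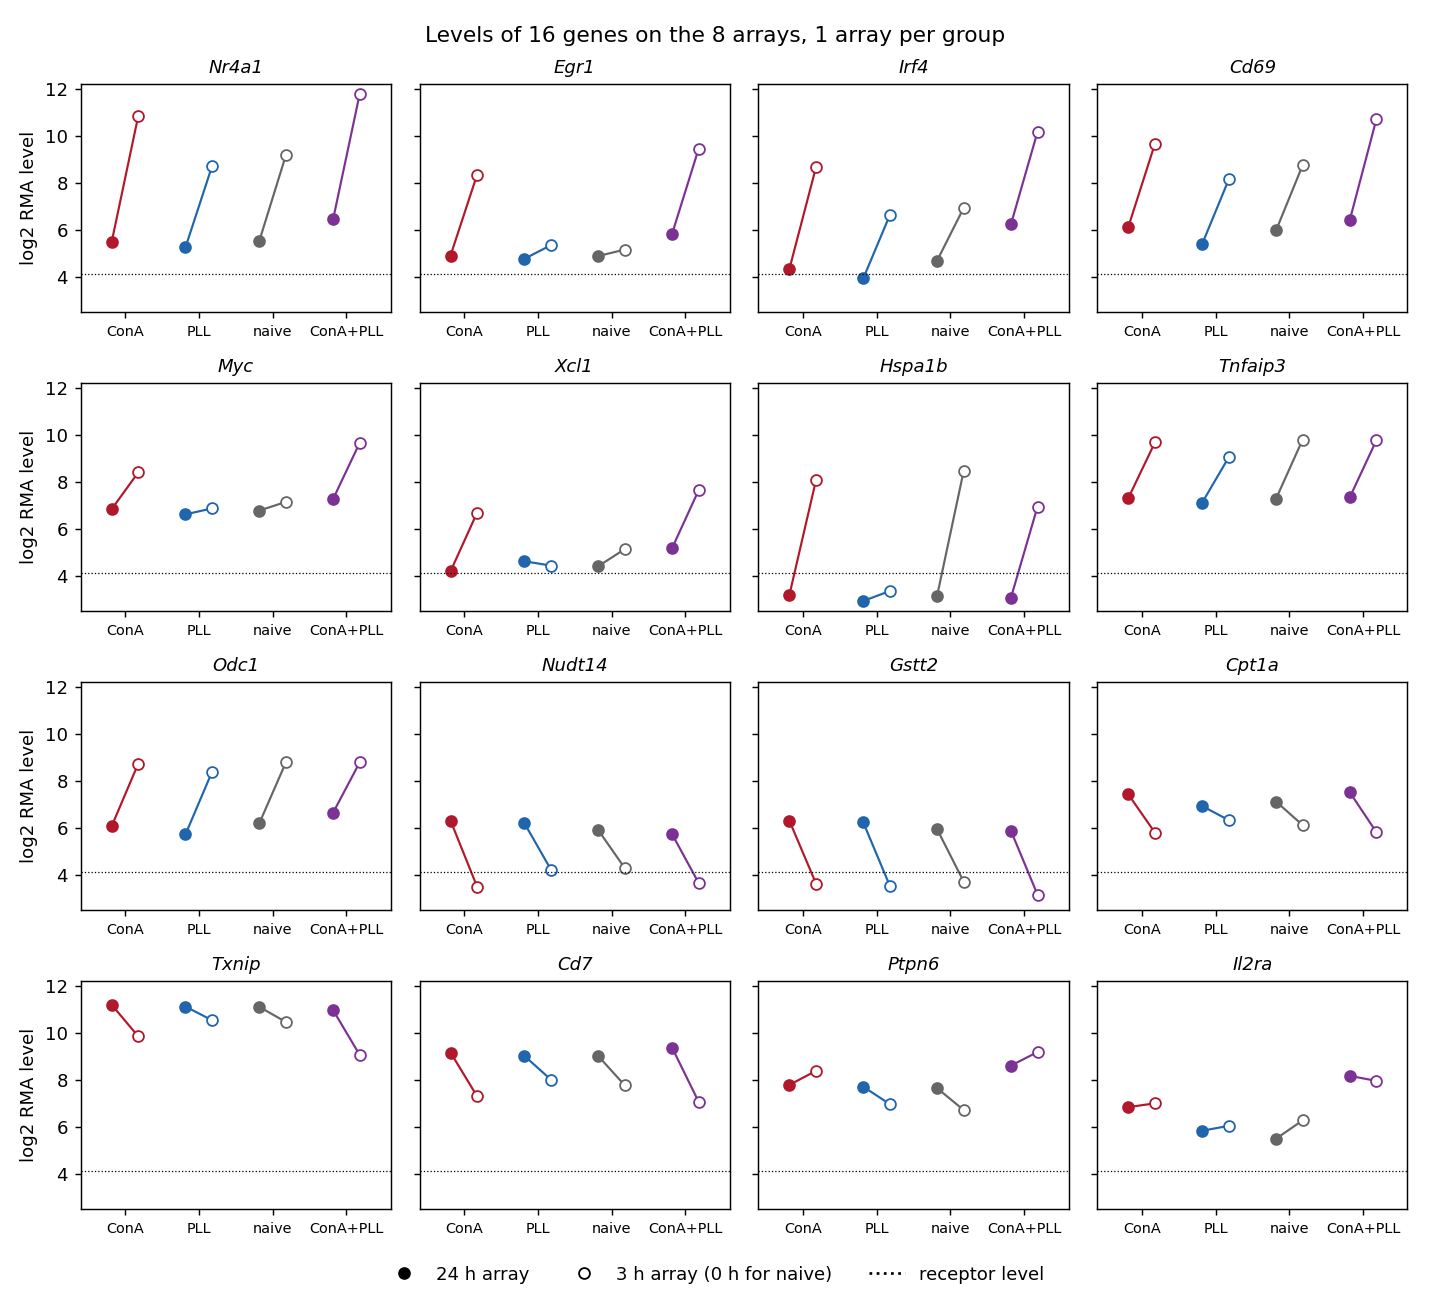
Level (log2 RMA) of 16 genes on the 8 arrays, with the 24 h array (filled point) left of the 3 h array (open point, 0 h for naive cells) in each pair and the receptor level as a dotted line. Nr4a1, Cd69, Tnfaip3 and Odc1 were far lower at 24 h in every pair, Egr1, Myc and Xcl1 mainly in the pairs with ConA, and Hspa1b was low on the PLL 3 h array.

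NF-kB genes were lower in all pairs. 5 of 14 were at least 2-fold lower with ConA and 13 were below 0, with a median of -0.85, next to -0.89 in the PLL pair and -0.73 in the naive pair. Tnfaip3, which encodes the feedback inhibitor A20, was at 7.32 at 24 h and 9.68 at 3 h (-2.37, against -1.93 with PLL and -2.52 in naive cells). Nfkbid, an atypical IkB protein, was at 5.54 and 8.44 (-2.90), against -1.03 with PLL and -1.20 in naive cells. Nfkb2 (-1.74), Rel (-1.40) and Relb (-1.21) were the other 2-fold members. The promoters of Nfkbid and Tnfaip3 are printed as those of lower genes that held motifs among the 6 searched. Each run is the 250 bases before a RefSeq start site (GRCm38.p6), 5' to 3'. Capitals mark TGACGTCA (CRE) and GAANNTTC (heat shock element) in Nfkbid, at chr7:30422156-30422405 (plus strand), and TGACTCA (AP-1) and CACGTG (E-box) in Tnfaip3, at chr10:19015411-19015660 (minus strand). The other annotated starts of both genes held none of these motifs.
Nfkbid: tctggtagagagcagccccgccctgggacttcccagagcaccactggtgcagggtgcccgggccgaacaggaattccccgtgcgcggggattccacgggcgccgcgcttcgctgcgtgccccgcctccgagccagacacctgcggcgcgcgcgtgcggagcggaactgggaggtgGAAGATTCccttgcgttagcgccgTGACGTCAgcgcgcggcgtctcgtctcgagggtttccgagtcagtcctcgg
Tnfaip3: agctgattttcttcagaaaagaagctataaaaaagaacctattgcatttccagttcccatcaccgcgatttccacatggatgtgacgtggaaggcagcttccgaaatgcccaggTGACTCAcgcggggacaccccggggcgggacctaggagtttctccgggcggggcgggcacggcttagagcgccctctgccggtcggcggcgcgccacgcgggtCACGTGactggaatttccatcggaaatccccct

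Motifs were counted over all 2-fold genes with an annotated promoter (144 of the 205 lower and 304 of the 406 higher). A gene counted if any of its annotated starts held the motif, so genes with several starts had more places to match. AP-1 sites (TGACTCA or TGAGTCA, both strands) were in 9.72% of these lower genes and 4.93% of these higher genes. Among the 10448 genes that passed and had a promoter the share was 3.95%. CRE (TGACGTCA) was in 4.17%, 1.32% and 2.84%, GAANNTTC in 6.94%, 4.61% and 6.16%, and CACGTG in 9.72%, 6.91% and 9.49%. The forkhead letters GTAAACA were in 4.17%, 4.28% and 2.64%, and the IRF motif, TTTC followed after any 2 bases by TTTC and found in interferon response elements, in 4.17%, 6.25% and 3.17%. A match describes the letters in this window and says nothing of binding.

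Feedback inhibitors of signalling had 11 of 30 members at least 2-fold lower and 1 higher (median -0.49). Dusp5, a phosphatase that removes phosphate from ERK, was at 5.38 at 24 h and 8.04 at 3 h (-2.66, against -1.56 with PLL and -1.74 in naive cells). Rgs1 (-1.78), Dusp4 (-1.40), Dusp10 (-1.35) and Rgs2 (-1.24), which limit G protein or MAP kinase signals, were also lower. Gadd45b, a stress-inducible gene, was at 6.16 and 8.84 (-2.69). Odc1, the first enzyme of polyamine synthesis, was at 6.07 and 8.73 (-2.66), and its difference was nearly the same with PLL (-2.67) and in naive cells (-2.59).

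Heat shock genes had 4 of 18 members at least 2-fold lower and 15 below 0 (median -0.38, against -0.26 with PLL and -0.46 in naive cells). Hspa1b and Hspa1a, the inducible Hsp70 genes, led. Hspa1b was at 3.20 with ConA at 24 h and 8.08 with ConA at 3 h (-4.88, or -3.98 from the receptor level). It was at 2.93 and 3.35 with PLL, at 3.15 and 8.47 in naive cells (24 h and 0 h), and at 3.07 and 6.95 with ConA+PLL. Hspa1a was at 3.23 and 7.47 with ConA (-4.24), at 3.28 and 3.15 with PLL, at 3.41 and 7.91 in naive cells, and at 2.97 and 6.42 with ConA+PLL. Fresh naive cells thus had the highest level of both, and the PLL 3 h array alone among the early arrays was under the receptor level. The 2 genes are near-identical copies, so their probe sets may read each other's RNA and their separate values are uncertain. Their promoters are printed together, with 247 of 250 bases the same. Both hold the heat shock element letters GAANNTTC in capitals at the same place. These bases lie before the start site, so they do not show what the probe sets read. Transcript and probe sequences were not compared. Hspa1b lies at chr17:34959239-34959488 (minus strand) and Hspa1a at chr17:34972157-34972406 (minus strand).
Hspa1b: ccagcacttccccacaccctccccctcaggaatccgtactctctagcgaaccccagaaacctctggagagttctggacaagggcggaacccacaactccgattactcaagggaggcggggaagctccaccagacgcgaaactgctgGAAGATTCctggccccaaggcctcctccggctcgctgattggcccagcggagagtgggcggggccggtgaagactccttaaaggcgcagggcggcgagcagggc
Hspa1a: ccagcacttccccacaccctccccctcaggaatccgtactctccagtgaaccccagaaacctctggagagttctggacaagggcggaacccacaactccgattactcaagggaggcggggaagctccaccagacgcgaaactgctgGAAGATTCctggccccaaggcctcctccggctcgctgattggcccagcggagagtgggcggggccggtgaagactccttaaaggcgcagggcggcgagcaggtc

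The other 2-fold heat shock genes were Hspa4l, an Hsp110 family member (5.12 at 24 h, 7.80 at 3 h, -2.68), and Hsp90aa1, the inducible Hsp90 (5.95, 7.02, -1.08). Both were also lower without ConA: Hspa4l differed by -1.28 in the PLL pair and -1.12 in the naive pair, and Hsp90aa1 by -0.89 and -1.23. Unfolded protein response genes had 2 of 18 members lower and 1 higher (median -0.44). Hspa5, the chaperone of the endoplasmic reticulum, was at 6.66 and 7.84 (-1.18), Ppp1r15a at 5.48 and 6.75 (-1.27), and Trib3 was higher, at 6.16 and 4.81 (1.35).

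Cytokine and chemokine genes had 4 of 18 members at least 2-fold lower and 2 higher (median -0.39, against 0.097 with PLL). Xcl1, a chemokine of activated T cells, was at 4.19 with ConA at 24 h and 6.69 with ConA at 3 h (-2.50). On the other arrays it was at 4.62 and 4.43 with PLL, 4.41 and 5.14 in naive cells, and 5.17 and 7.64 with ConA+PLL. Tnf was at 4.36 and 6.58 (-2.22), Tnfsf11 (RANKL) at 4.47 and 5.96 (-1.49), and Ccl3 at 3.80 and 5.20 (-1.40). Ltb, the lymphotoxin beta subunit, was among the higher genes, at 10.41 and 9.17 (1.25, with 1.17 in naive cells), and Ccl22 was the other, at 4.22 and 3.04 (1.18). The Ccl22 level at 3 h was under the receptor level. Il3, Il4, Il10, Il17a, Il21, Il22, Csf2 and Ccl1 were under the filter.

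Activation and checkpoint surface genes had 6 of 23 members at least 2-fold lower, 0 higher and 20 below 0 (median -0.69, against -0.78 in naive cells). Cd69, the early activation antigen, was at 6.13 with ConA at 24 h and 9.67 with ConA at 3 h (-3.54). It was at 5.40 and 8.15 with PLL, at 5.98 and 8.75 in naive cells, and at 6.43 and 10.72 with ConA+PLL. Tnfrsf9 (4-1BB) was at 6.02 and 8.01 (-1.997), Tigit at 4.13 and 6.07 (-1.95), Slamf1 at 5.63 and 7.54 (-1.90) and Cd83 at 5.38 and 6.72 (-1.34). The naive pair gave almost the same difference for Tnfrsf9 (-2.004) and Tigit (-1.94). Il2ra, the interleukin 2 receptor alpha chain, was nearly level at 6.84 and 7.002 (-0.16), and Cd44 at 4.68 and 4.85 (-0.17).

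The genes highest at 24 h were of mixed function, and most were also higher at 24 h in the other pairs. Nudt14, a hydrolase of nucleotide sugars, was at 6.31 with ConA at 24 h and 3.49 with ConA at 3 h (2.82, or 2.21 from the receptor level). It was at 6.20 and 4.22 with PLL, 5.91 and 4.28 in naive cells, and 5.74 and 3.66 with ConA+PLL. Gstt2, a glutathione transferase, was at 6.29 and 3.62 (2.67), with nearly the same difference with PLL (2.70), in naive cells (2.23) and with ConA+PLL (2.72). Abcg3, Eya2, Clybl, Ap3m2, Itih5, Zfp12, Ifit1bl1, Acp5, Syne1, Entpd5, Pdk1, Tnfsf10 and Cd7 completed the 15 highest, between 2.25 for Abcg3 and 1.87 for Cd7. Pdk1, a kinase that holds pyruvate dehydrogenase inactive, was at 8.36 and 6.44 (1.92), but its other probe set gave 0.84. Syne1, a giant nuclear envelope protein, was at 7.70 and 5.77 (1.94), while its 59 probe sets ran from -0.56 to 1.94. Cd7, an immunoglobulin family surface protein, was at 9.17 and 7.30, and was also over 2-fold higher with PLL (1.02) and in naive cells (1.25).

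Naive state and quiescence genes had 3 of 24 members at least 2-fold higher, 0 lower and 17 above 0 (median 0.24). Txnip, which limits glucose uptake, was at 11.20 with ConA at 24 h and 9.85 with ConA at 3 h (1.35, against 0.58 with PLL, 0.64 in naive cells and 1.91 with ConA+PLL). Dapl1 was at 9.11 and 7.57 (1.54), Il6ra at 9.86 and 8.66 (1.197) and Il7r, the interleukin 7 receptor, at 11.36 and 10.49 (0.86). T cell receptor complex and signalling genes had 3 of 20 members higher and 14 above 0 (median 0.41, against 0.55 with PLL and 0.56 in naive cells). Themis, a receptor signalling adaptor, was at 8.38 and 7.15 (1.24), Cd8b1 at 10.21 and 9.13 (1.08), and Cd4 at 9.90 and 8.83 (1.06). Cd3e itself differed by 0.26 and Notch1 by 0.21.

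Fatty acid oxidation genes, which feed mitochondria, had 3 of 21 members at least 2-fold higher, 0 lower and 15 above 0. The list median was 0.28, next to 0.12 with PLL, 0.37 in naive cells and 0.80 with ConA+PLL. Cpt1a, which carries fatty acids into mitochondria, was at 7.42 with ConA at 24 h and 5.79 with ConA at 3 h (1.63). It was at 6.93 and 6.33 with PLL, 7.12 and 6.12 in naive cells, and 7.51 and 5.81 with ConA+PLL, so the early ConA arrays were the lowest. Hadh was at 7.23 and 5.75 (1.48) and Acaa2 at 6.83 and 5.62 (1.21), both enzymes of the oxidation cycle. Acadm was higher by less than 2-fold, at 8.13 and 7.27 (0.86, against -0.11 with PLL and 0.69 in naive cells). Hadha (-0.09), Acadvl (-0.09) and Hadhb (-0.89) were not higher. Fatty acid synthesis genes went both ways, with 3 of 11 higher, 1 lower and a median of -0.018. The elongase Elovl6 was at 6.48 and 4.96 (1.52), Acss2 differed by 1.05 and Fads1 by 1.03, Srebf1, the factor that drives these genes, was at 5.54 and 6.76 (-1.22), and Fasn differed by -0.17. Lysosome genes had 2 of 20 members higher (median 0.29): Sgsh (7.47 at 24 h, 5.91 at 3 h, 1.56) and Ctsd (8.94, 7.72, 1.22).

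Interferon-induced genes had 4 of 23 members at least 2-fold higher and 1 lower, with a median of 0.073, near that of all genes. Ifit2 was at 6.65 at 24 h and 4.96 at 3 h (1.69), Ifit3 at 5.55 and 4.23 (1.32), Ifi208 at 6.16 and 4.95 (1.21), and Zbp1 at 7.22 and 6.03 (1.18). Oasl2 was lower but dim (3.27 and 4.51). Ifit1bl1, a gene of the Ifit family outside the list, was at 7.85 with ConA at 24 h and 5.90 with ConA at 3 h (1.95). It was at 7.99 and 7.36 with PLL, 8.01 and 6.11 in naive cells, and 7.85 and 5.36 with ConA+PLL, so the 24 h arrays lay between 7.85 and 8.01 and the early arrays between 5.36 and 7.36. Its promoter is shown as one of a higher gene, at chr19:34601969-34602218 (minus strand), with the IRF motif in capitals; its other annotated start holds these letters too.
Ifit1bl1: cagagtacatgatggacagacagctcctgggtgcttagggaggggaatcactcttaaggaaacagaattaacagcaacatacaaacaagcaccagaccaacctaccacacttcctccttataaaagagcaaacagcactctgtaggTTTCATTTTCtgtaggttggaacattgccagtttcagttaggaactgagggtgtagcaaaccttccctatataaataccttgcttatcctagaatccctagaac

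Genes of DNA replication and the cell cycle had no member 2-fold apart after ConA alone (0 of 24 and 0 of 17). Over all genes 3.02% were 2-fold higher and 1.53% lower, so in lists this short a count of 0 is near the share of all genes. The medians of the DNA replication and cell cycle lists were -0.0036 and -0.12, against 0.72 and 0.86 with ConA+PLL. Most cell cycle genes were dim, since 5 of the 17 reached the receptor level with ConA at 24 h and 7 at 3 h. Mki67, a marker of dividing cells, was at 4.15 at 24 h and 4.73 at 3 h (-0.58), and Top2a at 3.67 and 4.56 (-0.89). Ribosome biogenesis had 1 of 24 members lower and 20 below 0 (median -0.31). That member was Nop56, a nucleolar protein (7.41 and 8.63, -1.22), whose 3 probe sets ran from -1.22 to -0.18. Glycolysis had 13 of 18 members below 0 (median -0.34, against 0.14 with PLL and -0.20 in naive cells), with the glucose transporter Slc2a3 higher (1.01) and Tpi1 lower (-0.96). G1 cyclins, inhibitors and E2F factors had 14 of 17 members above 0 (median 0.40), with Cdk2 at 0.997, while Cdkn1a (p21) was 2-fold lower at -1.18, a dim gene at 3.66 and 4.84.

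Nucleotide synthesis (median 0.16, 1 of 21 higher), amino acid transport and one-carbon enzymes (-0.21, 1 of 16 lower) and survival and p53 genes (-0.019, 1 higher and 3 lower of 19) were mixed. Prps2, which makes the nucleotide precursor PRPP, was at 7.08 and 5.92 (1.15), Slc7a1, an arginine transporter, at 5.45 and 6.81 (-1.37), and Sesn1, a p53 target, at 8.57 and 7.38 (1.19). Interferon gamma induced GTPases had a median of -0.065 with 2 of 16 higher, Gbp7 (1.30) and Gbp8 (1.29). Microvilli and vesicle budding genes had a median of 0.091 and 1 of 18 higher, Flot1, a lipid raft protein, at 6.69 and 5.55 (1.14), while Ezr differed by -0.31, Vps4a by 0.07 (-0.05 after centring) and Vps4b by -0.05. Oxidative phosphorylation (-0.11), ribosomal proteins (-0.096), aminoacyl-tRNA synthetases (-0.057), cholesterol synthesis (0.0003) and regulatory T cell genes (-0.19) had 0 members 2-fold apart. In lists this short that is near the share of all genes (3.02% higher and 1.53% lower). Centring took 0.12 from every list median, which put the interferon, microvilli and cholesterol lists below 0.

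**Figure D3:**
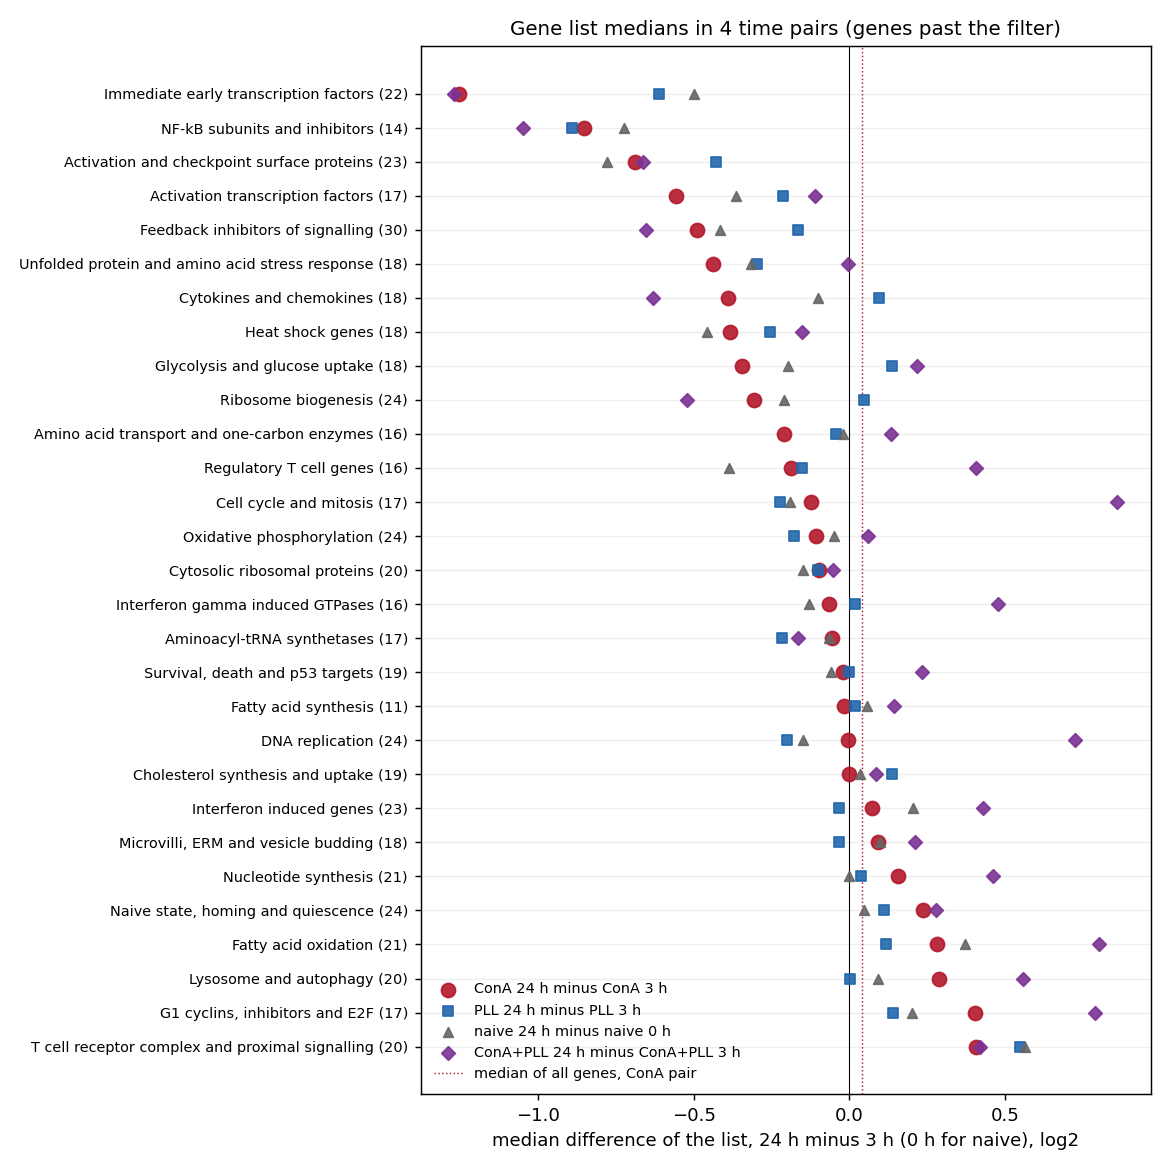
Median difference of 29 gene lists (log2), 24 h array minus 3 h array (0 h for naive cells), for ConA (circles), PLL (squares), naive (triangles) and ConA+PLL (diamonds), with the number of genes that passed the filter in parentheses. Immediate early genes were lowest with ConA (-1.26) and the T cell receptor list highest (0.41), and the cell cycle and DNA replication lists stood apart with ConA+PLL (0.86 and 0.72).

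Much of what differed over time with ConA also differed without it. The ConA pair shares no array with the other pairs. Of the 205 genes 2-fold lower with ConA, 103 (50.2%) were 2-fold lower in the naive pair, where they were 50.7% of the 203 lower genes, and 55 (26.8%) in the PLL pair, where they were 52.4% of 105. Of the 406 higher genes, 151 (37.2%) were 2-fold higher in the naive pair (64% of its 236) and 86 (21.2%) in the PLL pair (50.6% of its 170). The ConA+PLL pair shared 112 lower genes (54.6% of 205, 51.9% of 216) and 261 higher genes (64.3% of 406, 33.2% of 786). Across the 13428 genes, which are not replicates, the ConA difference correlated with the naive difference at r = 0.63, with the ConA+PLL difference at 0.62 and with the PLL difference at 0.53.

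The 205 lower genes had a median of -1.24 in the ConA pair, -1.09 in the ConA+PLL pair, -1.004 in the naive pair and -0.64 in the PLL pair. For the 406 higher genes the medians were 1.21, 1.19, 0.89 and 0.65. The ConA pair chose these genes, so its medians had to be large, and nothing is read from their being the largest. 43 genes were 2-fold lower in all 4 pairs, among them Nr4a1, Nr4a2, Nr4a3, Cd69, Irf4, Fos, Jun, Fosl2, Rel, Tnfaip3 and Odc1. 49 were 2-fold higher in all 4, among them Nudt14, Gstt2, Abcg3, Cd7, Pdk1 and Sgsh. In contrast, 49 lower genes were under 1.5-fold with PLL and in naive cells, among them Egr1, Myc, Ccl3, Bcl6, Dusp2, Nfil3, Cdkn1a and Tox, and 63 higher genes were. 5 genes were 2-fold apart in opposite directions. Gpx2-ps1 was higher with ConA and lower with PLL. Btbd35f17 and Cyp3a25 were higher with ConA and lower with ConA+PLL. Gzmb (granzyme B) and H2bc9 were lower with ConA and higher with ConA+PLL. Gzmb was at 2.98 at 24 h and 4.38 at 3 h with ConA, and at 5.10 and 3.10 with ConA+PLL. Its levels of 2.98 and 3.10 were under the receptor level, so its 2-fold differences rest partly on weak signal.

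**Figure D4:**
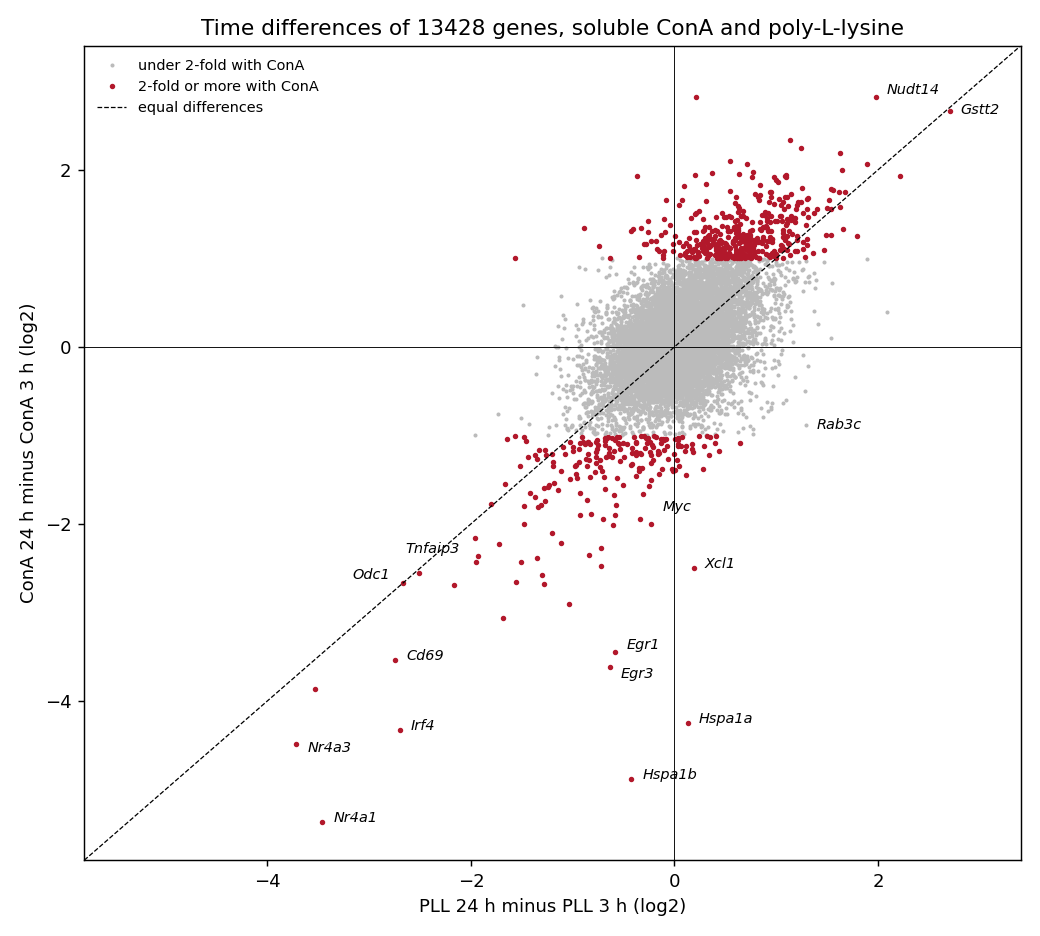
Time difference of each of 13428 genes with ConA (vertical axis, log2) against that with PLL (horizontal axis, log2), with genes 2-fold apart with ConA in red and equal differences on the dashed line. Odc1 and Gstt2 lay on the line, Nr4a1 and Irf4 lay below it, and Egr1, Egr3, Xcl1, Hspa1a and Hspa1b were between -0.63 and 0.19 with PLL.

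The ConA difference minus the PLL difference was 2-fold or more above 0 for 162 genes (1.21%) and below 0 for 187 (1.39%), and with levels under the receptor level set to it on all arrays these counts were 80 and 92. Hspa1b (-4.46), Hspa1a (-4.37), Egr3 (-2.99), Egr1 (-2.87), Xcl1 (-2.68) and Rab3c (-2.18), a small GTPase of the Rab family, were lowest. With the naive difference in place of the PLL difference Egr1 (-3.17), Egr3 (-2.28), Xcl1 (-1.77) and Rab3c (-1.34) were still 2-fold below 0, while Hspa1b (0.43) and Hspa1a (0.26) were above 0. The heat shock pair thus rested on the PLL 3 h array. Zfp12 (1.74), Tigd5 (1.71), Lyrm2 (1.68), Zfp846 (1.57), Plpp5 (1.56) and Clybl (1.55) were highest as measured. The ConA 3 h levels of Zfp12 (3.09), Tigd5 (3.18) and Clybl (3.51) were under the receptor level. With levels set to it these genes were at 0.73, 0.79 and 0.96 against the PLL difference and at 0.11, 0.16 and 0.67 against the naive difference, so none was 2-fold above 0. Lyrm2 (1.68 against PLL, 1.54 against naive) and Zfp846 (1.53 and 1.49) were 2-fold above 0 in both, and Plpp5 was not against naive (-0.020). Zfp846 was at 5.67 with ConA at 24 h and 4.07 with ConA at 3 h, and between 4.92 and 5.58 on the other 6 arrays, so its difference came from the ConA 3 h array. Lyrm2 was likewise lowest on that array, at 4.76 with 6.18 at 24 h.

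The response to ConA itself was set at each time against naive cells, ConA 24 h minus naive 24 h and ConA 3 h minus naive 0 h, which share no array. 33 genes were at least 2-fold higher with ConA at 3 h (0.246%) and 16 at 24 h (0.119%). At least 2-fold lower were 37 genes at 3 h (0.276%) and 19 at 24 h (0.141%). 0 of the 33 higher genes were also 2-fold higher at 24 h, next to 0.119% of all genes. Their median response was 0.097 at 24 h and 1.30 at 3 h, where it had chosen them, against 0.018 for all genes at 24 h. 20 of 33 (60.6%) were above 0 at 24 h, next to 52.9% of all genes, and in the 20 that were bright and named the median at 24 h was -0.013 with 10 above 0. The 37 lower genes had a median response of 0.058 at 24 h and -1.13 at 3 h, where it had chosen them, and 0 of them were 2-fold lower at 24 h. The 3 h response joins ConA with culture time, since its control is the 0 h array. With PLL as control at both times, 106 genes were 2-fold higher at 3 h (0.789%) and 12 at 24 h (0.0894%). Those 106 had a median of 0.085 at 24 h and 1.18 at 3 h, and 0 of them were 2-fold higher at 24 h. The 67 genes 2-fold lower at 3 h with that control (0.499%) had a median of -0.0067 at 24 h and -1.15 at 3 h, and 1 of them was 2-fold lower at 24 h. Few genes of any kind were 2-fold apart at 24 h, so nothing is read from these overlap counts alone.

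Egr1 had a response of 0.02 at 24 h and 3.20 at 3 h. For Nr4a1 these values were -0.04 and 1.67, for Irf4 -0.34 and 1.74, for Egr3 -0.48 and 1.80, for Xcl1 -0.21 and 1.56, and for Myc 0.06 and 1.26. Each of these genes was thus within 0.50 of naive cells after 24 h. Against PLL at 24 h they ran from -0.69 for Egr3 to 0.41 for Irf4. Among the gene lists the median response against naive cells at 24 h was highest for regulatory T cell genes (0.33, with 0.13 at 3 h). Activation and checkpoint surface genes came next (0.27, with 0.34 at 3 h), and immediate early genes were lowest (-0.11, with 0.37 at 3 h). Tnf kept 0.42 of 1.29. Ptpn6, which encodes the phosphatase SHP-1, had 0.14 at 24 h and 1.67 at 3 h: it was at 7.79 with ConA at 24 h and 8.39 at 3 h, and at 7.65 and 6.72 in naive cells. Its level in naive cells was thus higher at 24 h than at 0 h. Btla, an inhibitory receptor, had 0.21 and 1.30. The members with the most left at 24 h were Cyp2d34 (0.80), Olfr869 (0.80), Lce1h (0.72) and Zfp273 (0.71), all under the receptor level on the ConA 24 h array.

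**Figure D5:**
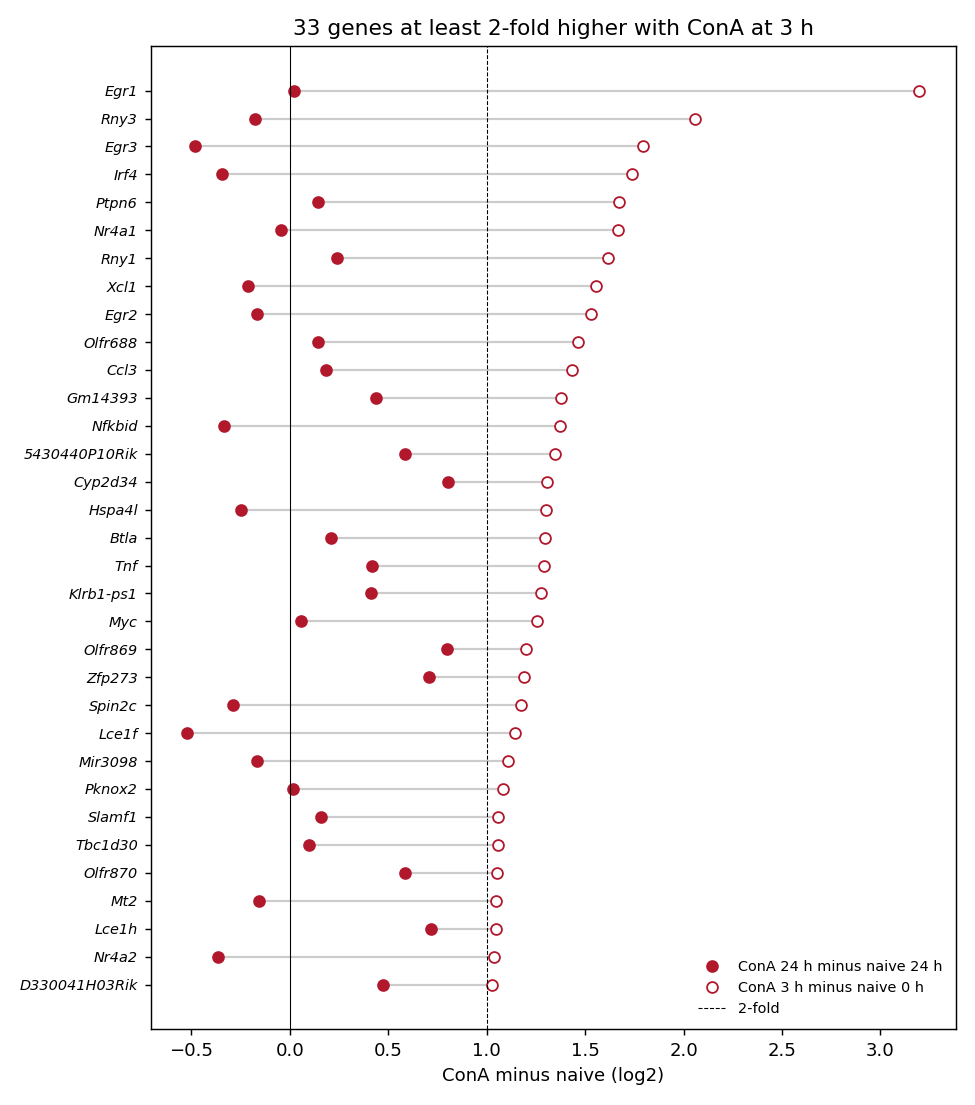
Response to ConA of the 33 genes at least 2-fold higher at 3 h: ConA 24 h minus naive 24 h (filled points) and ConA 3 h minus naive 0 h (open points), log2, with 2-fold as the dashed line. All 33 filled points lie left of the line, with a median of 0.097.

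The 16 genes 2-fold higher with ConA at 24 h (0.119% of all genes) were not among the 33, and at so low a share nothing is read from this. Itih5, a matrix protein stabiliser, was at 5.87 with ConA at 24 h and 4.20 in naive cells at 24 h (1.67), and its 3 h response was 0.30. It was at 4.71 with PLL at 24 h. Il2ra was at 6.84 and 5.49 (1.35), and at 5.83 with PLL at 24 h. With ConA its level was 6.84 at 24 h and 7.002 at 3 h, while in naive cells it was 5.49 at 24 h and 6.28 at 0 h. Its response at 3 h was 0.73 against naive cells, under 2-fold. Against PLL its response was 1.005 at 24 h and 0.96 at 3 h. The Il2ra difference was thus already seen at 3 h, and its larger value against naive cells at 24 h went with a lower naive level. Ccl22, a chemokine, was at 4.22 and 3.04 (1.18) and at 4.08 with PLL at 24 h, with its naive level under the receptor level. H2-Ab1, which encodes an MHC class II chain, was at 5.29 and 4.26 (1.03), but at 5.69 with PLL at 24 h, above the ConA level. Tagap1 was at 4.996 and 3.72 (1.28), and at 4.81 with PLL at 24 h, and its naive level was also under the receptor level. The others were Cyp4f16, Cela3a, Tmem106a, Txndc2, Zfp600, Zfp493, Zfp658, Mir1951, Gm3141, Vmn1r103 and Trav3-4, many of them close to the receptor level.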

How the data were processed

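Affymetrix Mouse Gene 2.0 ST arrays were hybridised with RNA of mouse CD3 T cells in 8 groups, set by the sample labels, with 1 array each. The authors normalized the arrays by RMA (robust multi-array average). The deposited values were read as log2 levels because RMA gives that scale, since the table does not state the base. Not given in the sources used here are the software version, the genome build and which arrays were normalized together. RMA brings the probe values of the arrays it is run on to one distribution, so a shift of all genes could be hidden. The table held 41345 probe sets, of which 23521 had 1 gene symbol, 1820 several and 16004 none in the platform annotation. Of the 23521, 23328 matched the RefSeq GRCm38.p6 table, which changed 0 symbols and also gave the promoters. The brightest probe set stood for each of 1082 genes that had several, so that 22180 genes remained, and those whose highest value reached the table median (3.62) passed the filter. 0 columns belonged to another series.

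Differences between arrays were computed in Python 3.11.15 with pandas 2.3.3 and numpy 2.4.6, and counted at 2-fold. The counting was tested on simulated data. With 1 array per group no test across samples could be run, and the number of arrays limits the precision. The text names the 15 genes that differed most on each side and 6 a side for change minus change, up to 5 members per list, genes higher at 3 h and genes tied to the study. The genes ranked by difference (15 and 6 a side) had to reach the receptor level. Predicted genes, clones, pseudogenes, small RNAs, receptor genes and antigen receptor segments were left out of these rankings. List members, genes higher at 3 h and genes tied to the study were named without these conditions. Genes named as shared, opposite or under the filter, the 4 with the most response left at 24 h and the 16 higher at 24 h were added after their values were seen and did not have to meet these conditions. The comparison, gene lists, markers and rules were chosen with earlier results of these data known, so they support nothing independently. Alternatives were quantile normalization, centring, the mean of probe sets, no filter, a filter on the mean, the receptor level as filter, 1.5-fold, another control, and the mean over list members. Setting levels under the receptor level to it was added after the values were seen.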

Additional observations from a re-analysis of the deposited data

Results flagged for a closer look

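These results had opposite signs in the ConA pair and another pair. With 1 array per group the differences between pairs were not tested.

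Among the named genes, 4 were flagged as lower with ConA at 24 h and higher with ConA+PLL at 24 h. The flag did not cover all genes with these signs, such as Mcm5 (-0.60 with ConA and 0.74 with ConA+PLL). At 2-fold on both sides, 2 of the 205 lower genes had them, Gzmb and H2bc9. Gzmb was under the receptor level on the ConA 24 h and ConA+PLL 3 h arrays. Iigp1, an interferon-inducible GTPase, differed by -0.87 with ConA (4.62 at 24 h and 5.50 at 3 h) and by 1.63 with ConA+PLL. Kif11, a spindle motor, differed by -0.62 and 1.67, Mki67 by -0.58 and 1.28, and Top2a, the topoisomerase of dividing cells, by -0.89 and 1.57. The ConA 24 h levels of Kif11 (3.498) and Top2a (3.67) were under the receptor level of 4.10. Kif11, Mki67 and Top2a were also lower in the naive pair, by 0.70, 1.16 and 1.22.

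Against PLL, Rab3c differed by -0.89 with ConA and by 1.29 with PLL, and Tigd5, a transposase-derived gene, by 0.999 with ConA and by -0.71 with PLL. The ConA 3 h level of Tigd5 (3.18) and the ConA 24 h level of Rab3c (3.87) were under the receptor level. With levels held at it Tigd5 differed by 0.08 with ConA and Rab3c by -0.66. With the mean of its 2 probe sets Rab3c differed by -0.48 with ConA.

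Among gene lists the medians of the ConA and ConA+PLL pairs were -0.065 and 0.48 for interferon gamma induced GTPases, -0.34 and 0.22 for glycolysis, -0.0036 and 0.72 for DNA replication, -0.12 and 0.86 for cell cycle, and -0.19 and 0.41 for regulatory T cell genes.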

How the results depend on the processing

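No list, and none of the named genes put through the alternatives, changed sign where its ConA difference was past 0.10. Other genes were counted under the alternatives but not followed singly. With the naive in place of the PLL difference, change minus change turned sign for 3 of its 12 named genes, Hspa1b (0.43), Hspa1a (0.26) and Plpp5 (-0.020), and had 125 genes above 0 and 148 below. With levels held at the receptor level it had 80 and 92, and Zfp12, Tigd5 and Clybl were no longer 2-fold above 0. At 1.5-fold in place of 2-fold the ConA pair had 1543 genes higher and 801 lower, change minus change had 1088 and 952, and 356 genes were higher with ConA at 3 h, with a median 24 h response of -0.012 and 14 of them 1.5-fold higher at 24 h. The lower threshold itself adds genes. No filter gave 54 such genes at 2-fold in place of 33, and PLL as control gave 106. Centring moved every named gene and list by 0.12, by construction, turned the larger side of the counts (277 higher and 307 lower) and put the interferon, microvilli and cholesterol lists below 0 (-0.048, -0.03 and -0.12). The mean over members put fatty acid synthesis at 0.20, interferon gamma induced GTPases at 0.052 (0.058 with no filter) and DNA replication at 0.019, above 0, and cholesterol synthesis at -0.055. Taking the mean of probe sets moved 7 named genes beyond 0.10 (among them Pdk1, 1.38, and Nop56, -0.70) and 3 lists. No paired analysis was possible because each group holds 1 array and the 4 pairs of times are different treatments. Leaving out a replicate was not possible for the same reason. Signal over background limits 97 of the higher and 63 of the lower genes, whose lower level was under the receptor level.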

Other observations

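Probe sets without a gene symbol had larger 2-fold shares than named genes. Of 9616 that passed the filter, 578 (6.01%) were at least 2-fold higher with ConA at 24 h and 981 (10.2%) at least 2-fold lower, against 3.02% and 1.53% of named genes. The shares are not of like units, since each named gene was read by its brightest probe set and these are single probe sets. What the unnamed probe sets measure and how bright they were was not examined.

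Lower genes had a shorter median length than all genes that passed, with overlapping middle ranges, and higher genes had a lower median promoter GC content. These differences were not tested. The median gene length was 20.3 kb for higher genes and 14.9 kb for lower genes, against 18.8 kb for all genes that passed, with middle ranges of 8.56 to 47.3 kb, 4.404 to 38.1 kb and 7.11 to 45.1 kb. The median GC content of the 250 promoter bases was 56.4%, 60.4% and 59.2%.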
